A study of Arabidopsis thaliana with 9 samples.

Results

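The wild-type small RNA landscape of Arabidopsis thaliana was described from the 3 small RNA libraries labelled wild type (Col-0), out of 9 libraries in the series. The libraries were chosen by genotype and assay label alone, and every annotated nuclear locus in their count tables was used. The other libraries, used here only where named, were 3 small RNA and 3 rRNA-depleted stranded RNA-seq libraries of the dxo1-2 mutant. Plants of both genotypes were 21 days old and had grown on soil in long days of 16 h light and 8 h dark, after 2 days of stratification at 4 °C. DXO1 belongs to a family of enzymes that act on the 5′ end of RNA, and the labels give nothing on the nature of the dxo1-2 allele. The sources describe the replicates of each genotype as biological and the material as whole seedlings, so the counts are not those of isolated leaves. In the dxo1-2 RNA-seq libraries the 3 leaf markers RBCS1A, CAB1 and RCA summed to between 8387 and 10323 CPM (counts per 1e6 gene counts). The 3 root markers summed to between 167 and 194 CPM there, nearly all of it from the root and hypocotyl glucosidase gene PYK10, with RHD6 at 0 counts. The flower markers AG, AP3 and PI summed to at most 0.465 CPM.

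Plant small RNAs fall into a few broad kinds. MicroRNAs are cut from hairpin transcripts, and secondary or phased siRNAs from double-stranded copies of certain transcripts. The heterochromatic siRNAs are made by RNA polymerase IV, RDR2 and DCL3 and guide DNA methylation at transposons and repeats, which in Arabidopsis lie mostly around the centromeres. Fragments of abundant RNAs such as rRNA, tRNA and mRNA are sequenced with them. The count tables hold no read lengths or strands, so none of these kinds was separated here. Loci annotated as microRNA or as trans-acting siRNA precursors are not analysed here.

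The 3 Col-0 libraries held 3976221, 4140212 and 4393015 counts on annotated loci. Those counts were 22.3, 22.2 and 23.7% of all lines of the tables, while 67.6% ± 1.20 (SD, n = 3) lay outside annotated genes and 7.68% ± 0.221 were listed as not aligned. Of 36899 nuclear loci, 18452 had a count in all 3 libraries and 7304 had none in any. A mean of at least 10 counts was reached by 8588 loci. The 285 plastid and mitochondrial loci of the tables held no counts. Whether organelle sequences were part of the mapping or counting was not examined, so this is no measure of organelle small RNA. Values below are CPM of the gene counts of each library. They are shares of the sequenced small RNA and are not divided by locus length, so they rank loci by the counts they carried, not by density.

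Ribosomal RNA loci came first. AT3G41768 carried 72612, 78365 and 99530 CPM in replicates 1, 2 and 3, and AT2G01010 carried 71030, 76567 and 97017 CPM. The rRNA locus AT2G01020 carried 61480, 45751 and 91123 CPM. All 3 loci were highest in replicate 3, and AT2G01020 varied most, with a coefficient of variation (CV, SD over mean) of 34.8%. Together they held 20.5, 20.1 and 28.8% of the gene counts. AT3G41768 and AT2G01010 had close counts in every library, 288723 and 282431, 324447 and 317002, and 437239 and 426198 in replicates 1, 2 and 3. They differed by more than the 1% allowed below for matching loci, so they were counted as separate loci throughout. Whether these 2 loci share reads was not tested. The fourth annotated rRNA locus, AT3G41979, held 0 counts in each of the libraries, which allows at most 3 counts per library. The tables list the counts of repeated rRNA units at single loci, so the placing of reads that match several units bears on these values, and the sources used here do not state it.

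The next loci were a protein-coding locus and a pseudogene of chromosome 3. AT3G06435 carried 16186, 10446 and 11439 CPM, with replicate 1 well above the other libraries. The transcribed pseudogene AT3G32990 carried 11540, 13419 and 11553 CPM, a mean of 12171 ± 1081 CPM (SD, n = 3). It had only 0.0204 CPM in the dxo1-2 RNA-seq libraries. AT2G01021, the immediate neighbour of the rRNA locus AT2G01020, carried 7565, 7603 and 11483 CPM, and like the rRNA loci it was highest in replicate 3.

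Argonaute genes, whose proteins bind small RNAs and use them to find target RNAs, supplied the leading protein-coding pair with a known function. AGO2, a slicer with roles in antiviral defence, carried 7836, 7366 and 6695 CPM. Its neighbour AGO3, a close relative, carried 7068, 6186 and 5671 CPM. The AGO3 value was 0.902, 0.840 and 0.847 of the AGO2 value in replicates 1, 2 and 3, so the pair kept nearly the same proportion in each library. Both loci were transcribed in dxo1-2 seedlings at modest levels, 13.8 CPM for AGO2 and 4.16 CPM for AGO3 in RNA-seq.

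Transfer RNA loci for glutamate made up the next block. AT4G37175 carried 7957, 8024 and 5685 CPM. The tRNA loci AT5G66755, AT1G09110, AT1G20170 and AT5G27715 and the protein-coding locus AT1G73650 matched AT4G37175 within 1% or 1 count in every Col-0 library. Loci that match in this way are taken to share reads, and the values of the 6 loci cannot be counted as separate sources. Replicate 3 was the lowest library for this block, the reverse of its place for rRNA.

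Non-coding and protein-coding loci of the chromosome arms filled the rest of the 20 highest. AT3G01835 carried 5723, 3468 and 4030 CPM and AT3G01845 carried 4349, 2657 and 3017 CPM. These 2 non-coding RNA loci and AT3G06435 stand next to each other in the order of the RefSeq annotation, each overlaps another annotated gene, and all 3 were highest in replicate 1 and lowest in replicate 2. AT5G14550 had a mean of 3764 ± 724 CPM, AT4G30975 one of 3511 ± 273 CPM and AT5G26146 one of 2984 ± 294 CPM (SD, n = 3 each). AT1G63130, which encodes the RNA processing factor RPF6, followed with 2783, 3166 and 2732 CPM. These last 4 loci each overlap an annotated microRNA gene, and the tables do not separate the counts of overlapping loci. By annotation the 20 highest loci were 7 protein-coding, 5 tRNA, 4 non-coding RNA, 3 rRNA and 1 pseudogene. Their CVs lay between 7.77 and 34.8%, with a median of 18.4%.

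**Figure D1:**
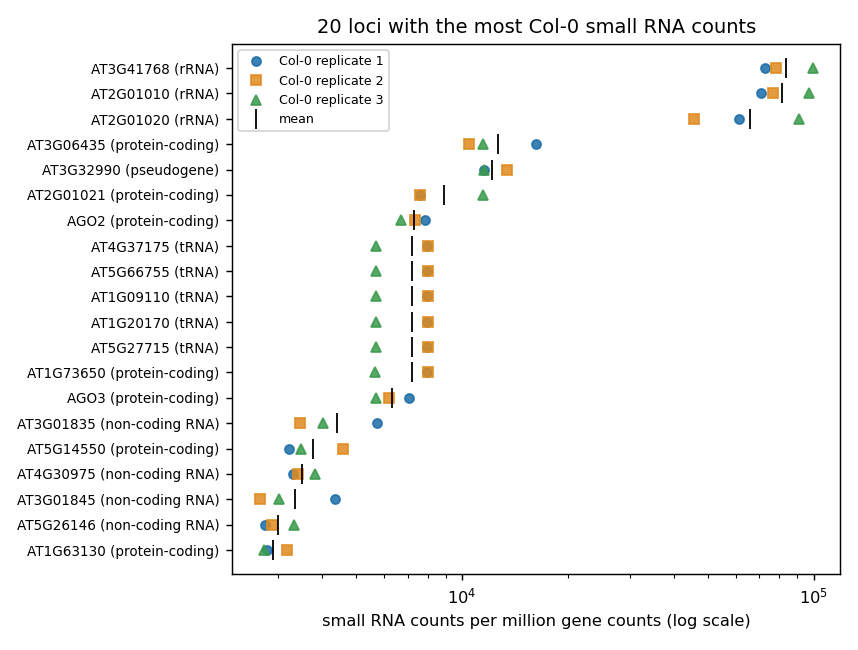
Small RNA CPM (x axis, log scale) at the 20 loci with the highest mean in the 3 Col-0 libraries (y axis, class in brackets); points are single libraries and the black stroke is their mean. The 3 rRNA loci stand apart on the right, up to 99530 CPM, and replicate 3 is the highest library for rRNA and the lowest for the matching tRNA block at 5685 CPM.

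The counts were concentrated in few loci. The 10 highest loci held 27.2, 26.4 and 34.6% of the gene counts (29.4% ± 4.53, SD, n = 3), the 100 highest 45.2% ± 3.55 and each library's own 1000 highest 72.1% ± 1.60. It took 214, 218 and 110 loci to hold 50% of the counts, and 2898, 2882 and 2819 to hold 90%. The smaller number in replicate 3 went with its larger rRNA share. With rRNA and tRNA loci left out, 50% of the remaining counts lay on 560, 558 and 556 loci, and the difference between the libraries was 4 loci at most.

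**Figure D2:**
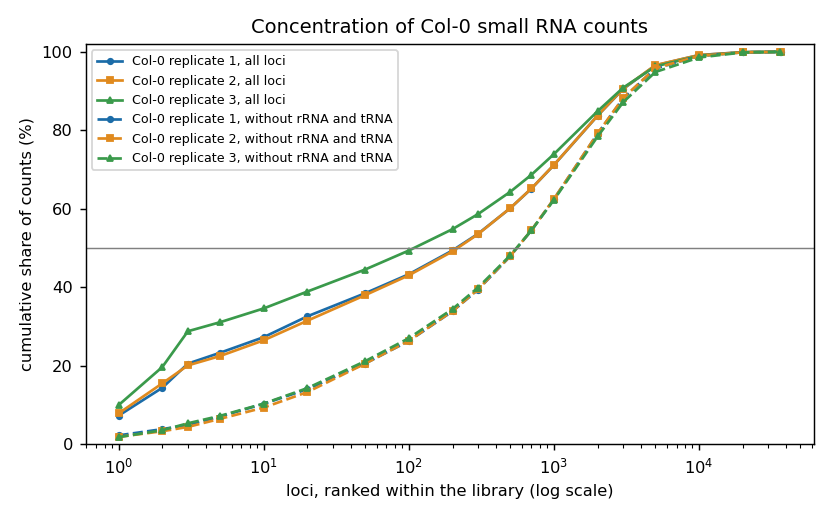
Cumulative share of small RNA counts (y axis, %) against the number of loci, ranked within each Col-0 library (x axis, log scale), with all loci (solid lines) and without rRNA and tRNA loci (dashed lines). The solid line of replicate 3 reaches 50% at 110 loci, before those of replicates 1 and 2 at 214 and 218, whereas the dashed lines reach it at 556 to 560 loci and lie nearly on each other.

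The same loci led each library. Of the 100 highest loci of a library, 95 were shared by all 3, and 105 loci were in the list of at least 1 library. The share was 8 of the 10 highest, 17 of the 20 highest and 917 of the 1000 highest.

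Pseudogenes became the main class further down the ranking. They were 1 of the 20 highest loci, 40 of the 100 highest and 730 of the 1000 highest. The RefSeq table gives transposable element genes no class of their own, so the pseudogene class may hold them. The class had 4829 loci, 88.1% of which had a count in all 3 libraries, against 47.2% of 27444 protein-coding loci. Its counts were spread over many loci. In pseudogenes 50% of the class's counts lay on 503, 503 and 499 loci, in protein-coding loci on 77, 70 and 75 and in tRNA loci on 5, 5 and 7. In the class of long and other non-coding RNA, 5, 6 and 5 of 3628 loci did so, and 66.7% of that class had no count at all. Without rRNA and tRNA, pseudogenes held 62.7% ± 0.893 of the counts, protein-coding loci 32.0% ± 0.613 and long and other non-coding RNA 4.74% ± 0.338 (SD, n = 3 each). The protein-coding part still held AT2G01021, next to an rRNA locus, at a mean of 8884 CPM. It also held AT1G73650, which matched tRNA-Glu loci, at 7205 CPM.

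The highest pseudogenes after AT3G32990 were AT3G43730 with 2817, 2876 and 2722 CPM and AT1G62860 with 3173, 2706 and 2349 CPM. AT3G43730 had 0 counts in the dxo1-2 RNA-seq libraries. AT1G62860 lies among pentatricopeptide repeat genes described further on. Among snoRNA loci, a class many of whose members guide modification of other RNAs, U3B led with 257, 308 and 449 CPM and was highest in replicate 3. The snRNA class, RNAs of the spliceosome, was led by U6.4 and U6-1, each at 208, 185 and 181 CPM. Those loci matched each other in every library and are taken to share reads.

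Transfer RNA counts came from a few amino acid families. The 24 tRNA-Glu loci summed to 47433, 48185 and 34219 CPM, which was 64.3% of all tRNA counts. The 33 tRNA-Ala loci summed to 11482, 14249 and 17925 CPM, or 21.6%. Glu was lowest and Ala highest in replicate 3. The tRNA-Arg loci followed with 2011 ± 528 CPM and tRNA-Gln with 1321 ± 228 CPM (SD, n = 3 each). Of the 33 Ala loci, 10 matched each other, each near 1090 CPM, so these family sums count shared reads more than once. Counting each matching group once lowered the tRNA share of all gene counts to 2.07%, against 6.73% ± 0.503 as deposited. Among 5455 loci with a mean of at least 50 counts, 668 fell into 292 such matching groups, of which 378 loci were pseudogenes, 172 protein-coding and 91 tRNA.

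Position along the chromosomes was read from the AGI locus number, which rises along each chromosome, in bins of 1000 numbers. Windows around the centromeres were set by bin, at bins 33 to 46 on chromosome 1, 4 to 14 on chromosome 2, 30 to 44 on chromosome 3, 5 to 9 on chromosome 4 and 27 to 36 on chromosome 5. They are stand-ins for the pericentromeres, chosen from textbook centromere positions and not from heterochromatin marks. The windows held 6459 of the 36899 loci, or 17.5%, and 45.97, 47.4 and 44.9% of the gene counts. Without rRNA and tRNA the share was 52.0, 53.1 and 52.6%, and a window locus carried on average 5.16 ± 0.120 times the counts of an arm locus (SD, n = 3). The median locus had 12.7 CPM in the windows and 0.327 CPM on the arms.

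Window and arm loci differed in how many reached a given count. Of window loci 64.4% reached a mean of 10 counts, and of arm loci 14.5%. The loci that did are a selection made by the counts themselves, and their levels are given as a description. Their median was 39.5 CPM in the windows and 10.9 CPM on the arms without rRNA and tRNA. Their mean per window locus was 1.15 ± 0.0285 times that of an arm locus without rRNA and tRNA, and 0.928 ± 0.0465 times with them. Within pseudogenes that reached 10 counts the ratio of means was 0.789 ± 0.0405, and the medians were 52.2 CPM in the windows and 67.7 CPM on the arms. For protein-coding loci the ratio of means was 0.872 ± 0.00580, but the medians were 16.4 CPM in the windows and 6.54 CPM on the arms. Pseudogenes reached 10 counts at 94.2% of their 3313 window loci and 61.1% of their 1516 arm loci. Protein-coding loci did so at 42.4% of 2039 window loci and 11.1% of 25405 arm loci. With no count limit, the mean pseudogene had 96.4 CPM in the windows and 79.5 CPM on the arms. The pseudogene medians were then 47.3 and 15.1 CPM. Protein-coding loci with no count limit had means of 22.3 CPM in the windows and 7.03 CPM on the arms. Their medians were 1.29 and 0.389 CPM.

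The 5 chromosomes differed in the size of the ratio. Without rRNA and tRNA the counts per window locus over those per arm locus were 4.88 ± 0.0929 on chromosome 1, 3.02 ± 0.131 on chromosome 2, 7.98 ± 0.708 on chromosome 3, 4.35 ± 0.0294 on chromosome 4 and 8.55 ± 0.0801 on chromosome 5 (SD, n = 3 each). Chromosome 1, the one with the most loci, carried 25.8% ± 0.273 of these counts but the smallest part of them in its window, 38.6%. The other windows held 58.3, 56.9, 56.5 and 58.0% of their chromosomes' counts in order. With all loci, chromosome 2 had a ratio of 0.846 ± 0.180, since 2 of the leading rRNA loci lie outside its window. The windows held unlike parts of the loci, 11.2, 31.6, 14.1, 22.7 and 13.7% on chromosomes 1 to 5. Loci with out-of-order AGI numbers are included in these parts. How the locus numbers bear on the ratios of single chromosomes was not tested.

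**Figure D3:**
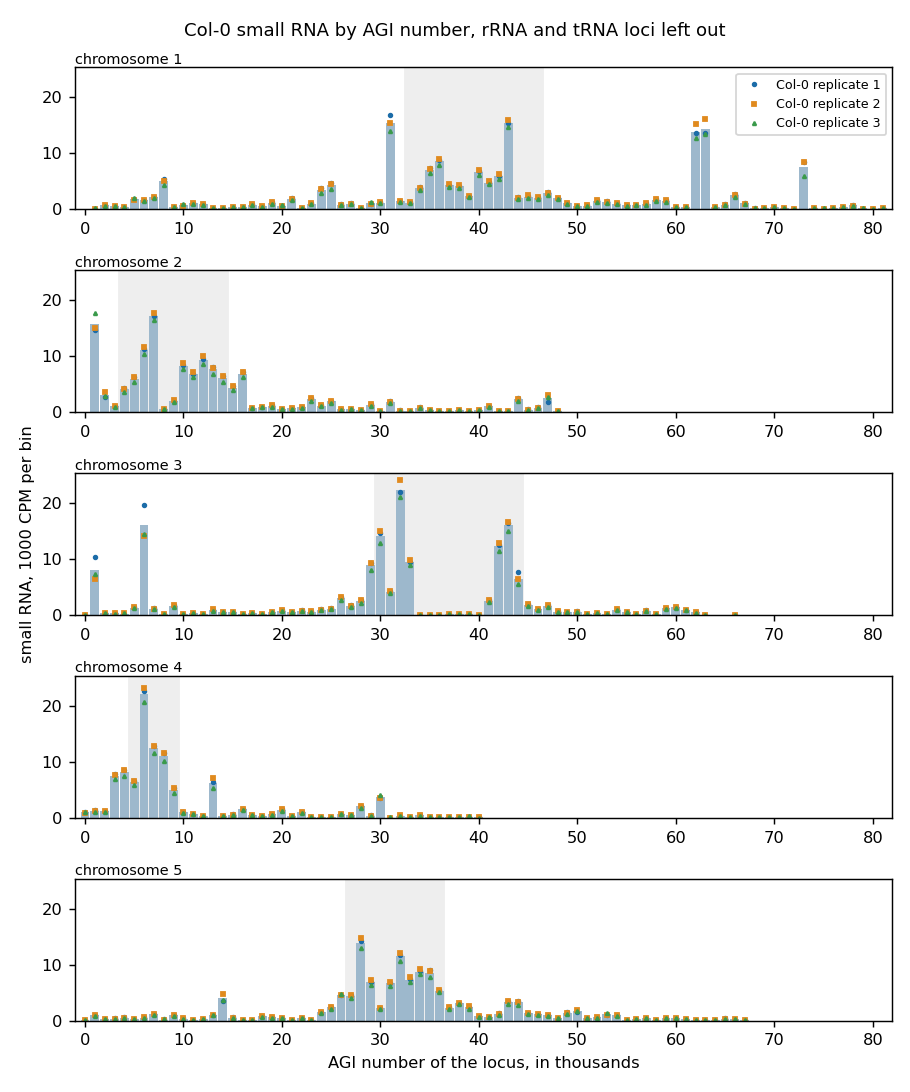
Small RNA per bin of 1000 AGI numbers (y axis, 1000 CPM; x axis, AGI number in units of 1000) along the 5 chromosomes, rRNA and tRNA loci left out; bars are means of 3 Col-0 libraries, points single libraries and grey bands the windows around the centromeres. Bars are high and broad inside the bands, where the median bin held 6062 CPM against 611 CPM outside, and tall bars also stand on the arms, such as those at 31, 62 and 63 on chromosome 1 and at 6 on chromosome 3.

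Of 303 bins, 29 held 50% of the counts without rRNA and tRNA, and 19 of these were window bins, although windows made up 55 of all bins. Full bins were built in different ways. Bin 32 of chromosome 3 summed to 22308 ± 1586 CPM, and AT3G32990 alone gave 54.6% of it. Bin 6 of chromosome 4 summed to 22067 ± 1299 CPM, but its highest locus, the pseudogene AT4G06656, gave 3.56%, and its 207 pseudogenes together gave 96.3%. On the arms, AT3G06435 gave 79.0% of bin 6 of chromosome 3, and AGO2 gave 47.4% of bin 31 of chromosome 1. AT3G01835 and AT3G01845 stand beside AT3G06435 in RefSeq order but have out-of-order AGI numbers. They were therefore placed in bin 1 of chromosome 3, where AT3G01835 gave 55.1% of the counts. Other full arm bins were built of many pseudogenes, as bin 29 of chromosome 3, next to the window, where 90 pseudogenes gave 87.5% of the counts and the highest locus, AT3G29615, gave 9.86%.

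Loci rich in small RNA often stood side by side. Of the 1745 loci with at least 100 CPM, 60.3% lay in the windows, and 37.9% belonged to 271 runs of immediate neighbours in RefSeq order that all reached 100 CPM. That level was reached by 4.73% of all nuclear loci, and by 1052 of the 6459 window loci. How many runs such density alone, or loci that share reads, would give was not tested. The longest run had 9 loci, AT4G06578 to AT4G06587, of which 8 were pseudogenes. It summed to 1977, 2000 and 1807 CPM. A run of 6 pseudogenes, from AT5G33431 to AT5G33624, summed to 1314 ± 38.2 CPM (SD, n = 3). The highest locus inside each chromosome's window, rRNA and tRNA aside, was, from chromosome 1 to chromosome 5, AT1G43740 with 2606 ± 135 CPM, AT2G06555 with 1551 ± 64.9 CPM, AT3G32990, AT4G09380 with 1341 ± 172 CPM and AT5G31927 with 1933 ± 81.6 CPM. All but AT3G32990 had 0 RNA-seq counts in dxo1-2, and all but the protein-coding AT2G06555 were pseudogenes.

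The pentatricopeptide repeat (PPR) loci of chromosome 1 formed a cluster rich in small RNA outside the windows. PPR proteins bind organelle RNAs, and those of the RFL type are related to restorers of fertility. Such transcripts are known in Arabidopsis as sources of secondary siRNAs. Of 21 RFL-type loci listed, 13 had at least 100 CPM, of which 12 had at least 1000 CPM, against 1745 and 75 of all 36899 nuclear loci. The list was chosen with earlier results of these data known, so this contrast is a description only. The list summed to 24457, 28933 and 24069 CPM, or 2.58% of the gene counts. The 14 members numbered AT1G62 and AT1G63 gave 89.95% of the counts of those bins. AT1G63080 carried 2590, 3189 and 2584 CPM. Replicate 3 was the highest library at only 553 of the 5455 loci with a mean of at least 50 counts. How many of the 5455 were highest in replicate 2 was not counted, so the replicate order below cannot be read as particular to this cluster. Of the 12 RFL-type loci above 1000 CPM, 11 were highest in replicate 2. The exception was the pseudogene AT1G62860, which was highest in replicate 1. The remaining members numbered AT1G62 and AT1G63 were low by comparison, AT1G62720 at 5.85 ± 0.550 CPM and AT1G62680 at 6.74 ± 1.497 CPM (SD, n = 3 each). List members numbered elsewhere lay between 0.880 CPM at AT1G64580 and 219 CPM at AT1G12775.

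The other lists held fewer loci above 100 CPM. They too were chosen with earlier results of these data known, so their values beside all nuclear loci are descriptions only. Of 13 NLR loci, which encode immune receptors and are a known source of phased siRNAs in plants, 6 had at least 100 CPM. AT5G38850 led with 708, 652 and 530 CPM, followed by AT5G43740 with 245 ± 47.4 CPM and AT1G12290 with 227 ± 43.9 CPM (SD, n = 3 each). The list median was 41.3 CPM, against 0.413 CPM over all nuclear loci. Among 20 genes of small RNA biogenesis and action, AGO2 and AGO3 were the only ones above 100 CPM, and the list median was 0.906 CPM. The list summed to 14982, 13621 and 12433 CPM, nearly all of it from this pair. AGO1, which binds most microRNAs, carried 38.2, 35.99 and 36.2 CPM. Of 21 genes known as targets of microRNAs or trans-acting siRNAs, none reached 100 CPM, a level that 4.73% of all nuclear loci reached. With 21 genes, so low a share cannot tell the list from other loci at that level. The list median was 9.13 CPM, against 0.413 CPM over all nuclear loci. A mean of at least 10 counts was reached by 17 of the 21, against 8588 of all 36899 nuclear loci. The auxin receptor gene AFB2 led that list with 80.5, 83.3 and 66.7 CPM. It was followed by the GRAS transcription factor genes HAM2 with 49.0 ± 11.4 CPM and HAM3 with 48.4 ± 8.60 CPM (SD, n = 3 each).

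Small RNA counts were set against transcript levels in the dxo1-2 RNA-seq libraries, which are of the other genotype and were depleted of rRNA. Wild-type RNA-seq was not analysed here, so a locus with little RNA in dxo1-2 may differ in Col-0. Loci below 1 CPM in RNA-seq held 71.9, 70.8 and 67.4% of the Col-0 small RNA counts. Without rRNA and tRNA they held 80.8% ± 0.562 (SD, n = 3), and were 18654 of 36270 loci. The 10428 loci with no RNA-seq count in any library were 28.8% of the loci and held 57.9% ± 0.775 of the small RNA counts. Between 9.88 and 10.98% of all RNA-seq lines were set aside as not uniquely aligned, against 0 in the small RNA tables, so repeated loci may have lost RNA-seq reads that the small RNA tables would have counted. Its part in these shares was not tested. Most of the sequenced small RNA on annotated loci thus lay on loci below 1 CPM in the RNA-seq of the mutant.

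Protein-coding loci departed from this in part. Those below 1 CPM in RNA-seq were 37.2% of the class and held 47.6% ± 0.602 of its small RNA counts, whereas pseudogenes below 1 CPM were 96.1% of theirs and held 97.5%. The median small RNA of all loci but rRNA and tRNA was 0.478 CPM at 0 RNA-seq counts, 0.0838 CPM in the next step up to 0.1 CPM and then higher with each step, to 3.48 CPM above 100 CPM. Across 17226 protein-coding loci with at least 1 CPM in RNA-seq, Spearman's rho between the measures was 0.528, a description over genes of 1 genome that also share length, which neither measure corrects for. The 799 loci above 100 CPM in RNA-seq were 2.203% of the loci and held 1.06, 1.01 and 1.70% of the counts, with replicate 3 the highest.

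**Figure D4:**
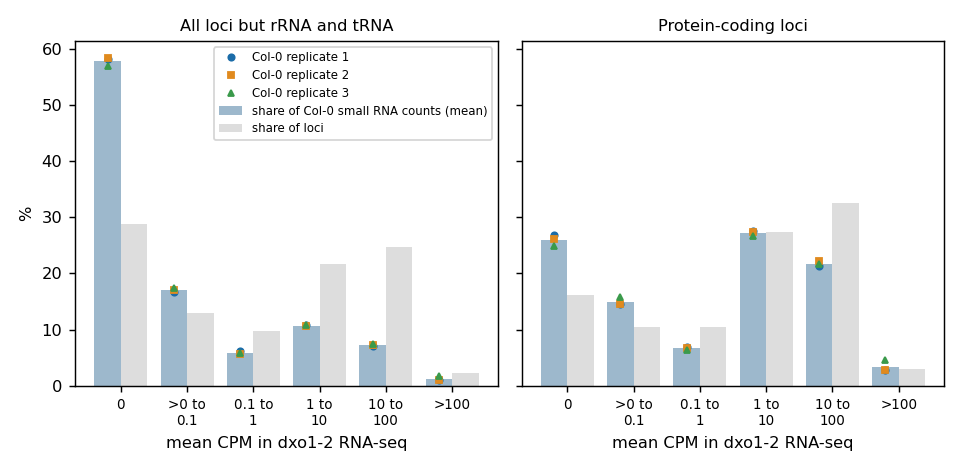
Share of Col-0 small RNA counts (blue bars, mean; points, single libraries) and share of loci (grey bars) by mean RNA-seq level in dxo1-2 (x axis, CPM steps), for all loci but rRNA and tRNA on the left and for protein-coding loci on the right; y axes in %. On the left the loci with 0 RNA-seq counts hold 57.9% of the small RNA and are 28.8% of the loci, while protein-coding counts are spread over the steps.

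Replicates agreed closely in rank and differed beyond counting error. Pearson's r of log2(CPM + 1) across the 8588 loci with a mean of at least 10 counts was 0.982 for replicates 1 and 2, 0.977 for 1 and 3 and 0.979 for 2 and 3. Of these loci, 97.0, 95.5 and 95.6% lay within 2-fold of each other in the 3 pairs in that order. A chi-square of the counts gave 6.68, 16.7 and 18.8 per degree of freedom, where counting error alone gives values near 1, so no library was a repeat deposit of another. The biological CV from edgeR's common dispersion was 12.8%, and 10.7% with replicates 1 and 2 alone. The median CV fell with depth to 9.65% at 1000 to 3000 counts, where counting error gives 2.66%, and was 12.5% at the 109 loci above 3000 counts, where counting error gives 1.41%. By class the median was 10.4% in pseudogenes, 13.8% in protein-coding loci, 18.5% in tRNA and 24.9% in snoRNA loci with at least 50 counts.

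Replicate 3 stood apart in a regular way. It was the lowest library at 3798 of 5455 loci, 69.6%, and the highest at 553. Its rRNA share was 28.8%, and over all 8588 loci the median ratio of replicate 3 to the mean of the others was 0.891, or 0.994 when rRNA and tRNA were left out of the totals. Nuclear photosynthesis genes moved the other way. CAB1, a light-harvesting protein gene, carried 162, 150 and 301 CPM, and RBCS1A, a Rubisco small subunit gene, carried 104, 87.4 and 185 CPM. Of 15 such genes 14 were highest in replicate 3, with a median ratio of 1.79, LHCB2.1 being the exception at 0.952. The elongation factor gene AT5G60390 carried 26.7, 21.5 and 48.3 CPM and the ubiquitin gene UBQ10 carried 27.7, 23.9 and 35.3 CPM. All 5 housekeeping genes with at least 10 counts were highest in replicate 3. So were 457 of 549 loci with more than 100 CPM in RNA-seq, at a median ratio of 1.79. These 549 had a mean of at least 10 counts and leave out rRNA and tRNA. Of all 8588 loci with a mean of at least 10 counts, 1757 were highest in replicate 3. Pseudogenes had a median ratio of 0.873 and NLR loci of 0.779, or 0.977 and 0.871 with rRNA and tRNA left out of the totals. On those totals the photosynthesis and highly transcribed loci had median ratios of 1.997 and 2.002. Reads listed as ambiguous between genes were 1.84, 1.47 and 2.60% of all lines in replicates 1, 2 and 3, again highest in replicate 3, and their part in these values was not tested.

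**Figure D5:**
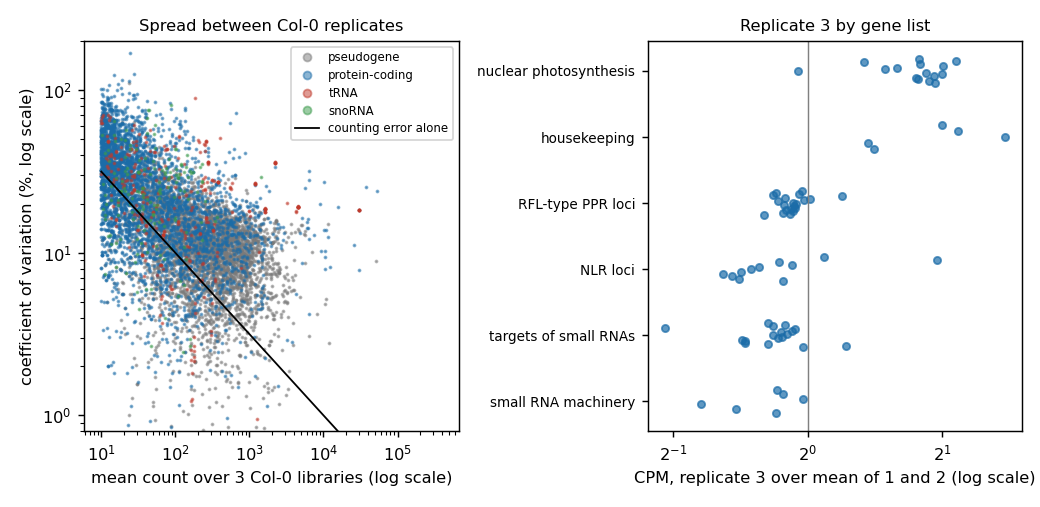
Left, coefficient of variation over the 3 Col-0 libraries (y axis, %, log scale) against mean count (x axis, log scale) for single loci by class, with the line that counting error alone gives; right, CPM in replicate 3 over the mean of replicates 1 and 2 (x axis, log scale) for members of 6 gene lists with a mean of at least 10 counts. Points rise above the line at high counts, where the median CV is 9.65% at 1000 to 3000 counts, and 14 of 15 photosynthesis and 5 of 5 housekeeping points lie right of 1.

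The steadiest and the least steady loci were named as extremes of 5455, so their CVs are descriptions. The pseudogene AT3G33130 had 171.0, 170.8 and 171.2 CPM, a CV of 0.123%, below the 3.75% that counting error gives on average. The other 4 steadiest loci, AT3G31905, AT3G32230, AT5G34412 and AT1G36225, were also pseudogenes in the windows. The least steady were a tRNA locus, AT5G35605, with 11.6, 89.1 and 33.2 CPM, the protein-coding AT4G08545 with 23.6, 1.93 and 13.0 CPM and AT2G15340 with 40.5, 14.01 and 7.74 CPM. The snoRNA locus AT5G00765 had 9.81, 40.6 and 12.5 CPM, and the carboxypeptidase-like gene scpl5 had 63.1, 16.9 and 20.03 CPM. No single library was the high one in all 5.

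The same measures were taken in the 3 dxo1-2 small RNA libraries as a point of comparison, over 9 measures. It took 416, 310 and 412 loci to hold 50% of the counts in dxo1-2, and 214, 218 and 110 loci in Col-0. The windows held 50.9995, 49.4 and 50.9% in dxo1-2 and 45.97, 47.4 and 44.9% in Col-0. The groups did not overlap in either measure. The exact two-sided permutation p was 0.1 for both (adjusted 0.129), the smallest that 3 against 3 libraries can give, so neither passed a threshold of 0.05. The same held for the share of the 10 highest loci and the protein-coding, pseudogene, tRNA and other non-coding RNA shares. The rRNA shares overlapped (exact permutation p = 0.3). Class shares are parts of the same total and are not independent of each other. Loci below 1 CPM in RNA-seq held 71.5, 68.0 and 70.2% in dxo1-2 and 71.9, 70.8 and 67.4% in Col-0, values that overlap (exact permutation p = 0.9). Without rRNA and tRNA loci the dxo1-2 minus Col-0 difference was 106 loci in the first measure, against 198.7 with them, and 2.198 percentage points in window share, against 4.36. For loci below 1 CPM in RNA-seq it was -2.04 percentage points, against -0.134, and there the groups did not overlap. Each of these 3 differences without rRNA and tRNA had an exact permutation p of 0.1, unadjusted.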

How the data were processed

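Small RNA was measured by sequencing in 3 Col-0 and 3 dxo1-2 libraries, and RNA-seq in 3 dxo1-2 libraries. The authors deposited raw counts per locus in a table for each library. The submitters' processing notes name Bowtie, bedtools, HISAT2, HTSeq and DESeq2 and the build TAIR10. Their roles and versions, strand handling and the placing of multiply matching reads are not given in the sources used here. The 5 summary lines were left out of the totals. In the small RNA tables the line for reads with several matches held 0.

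CPM was computed from the deposited counts by dividing by each library's gene counts (Python 3.11.15, pandas 2.3.3). The biological CV came from edgeR 4.0.16 in R 4.3.3, with TMM scaling and an intercept only, over loci with a mean of at least 10 counts. The R script was tested on simulated data with known dispersions. DESeq2 1.42.0 gave the alternative size factors. Replicate correlations used a pseudocount of 1 CPM.

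Symbols, classes, neighbours and overlaps came from a RefSeq gene table of TAIR10.1, which matched 36899 identifiers. None of its coordinates are given, because its build name differs from that of the counts. No base sequence is shown. AGI numbers stand in for position, and 3589 loci, 3266 of them long or other non-coding RNA, have numbers more than 1000 away from those of their neighbours and carried 2.91% ± 0.284 of the counts.

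The rule for named loci took the 20 highest, the 3 highest of each class and list, the highest locus inside and outside each chromosome's window and of each of the 5 fullest bins, and the 5 steadiest and least steady with a mean of at least 50 counts. AT1G63080's relatives AT1G62680, AT1G62720, AT4G06578, LHCB2.1 and other loci outside the rule were named after their values were seen. The samples, lists and windows were chosen with earlier results of these data known. Genotypes were compared by exact two-sided permutation tests of 3 against 3 libraries, with Benjamini-Hochberg adjustment over 9 measures. Same-numbered replicates of the genotypes are not stated to share a batch, so the main tests did not pair them. A count of 0 allows at most 3 counts, for counting error only.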

Additional observations from a re-analysis of the deposited data

Results flagged for a closer look

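Most of what was sequenced in the small RNA libraries lies outside the loci described above. Counts outside annotated genes were 63.2, 61.7 and 63.05% of all lines in the dxo1-2 libraries, and 68.2, 68.4 and 66.2% in Col-0 replicates 1, 2 and 3. The Col-0 mean was 67.6% ± 1.20 (SD, n = 3). The value is a signal in a line of the tables that none of the comparisons used, and the tables do not say where in the genome these reads lie.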

How the results depend on the processing

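Of the values recomputed under other settings, 142 stayed within the limit set for them, 36 moved further and 3 changed sign. The limit was the spread between replicates, or a fixed factor for the number of loci holding 50% of the counts. For the biological CV it was the spread over fits that each left out a library. For dxo1-2 minus Col-0 differences it was an unchanged sign only. Without rRNA loci, 50% of the counts lay on 498 loci, the 10 highest held 10.96%, protein-coding loci 29.2%, pseudogenes 57.2%, tRNA 8.76%, other non-coding RNA 4.33%, the windows 49.1% (ratio per locus 4.54) and loci with little RNA-seq 82.5%. Without rRNA and tRNA these became 558 loci, 9.93, 32.0, 62.7, 4.74, 52.6 (ratio 5.16) and 80.8%, and the window share was 53.1% with loci that match them also left out, a setting chosen after seeing the data. Counting matching loci once gave tRNA 2.07% and the windows 48.0% (ratio 4.47). The ratio was 0.928 among loci with at least 10 counts and 4.55 without loci of out-of-order number, a setting also chosen after seeing the data. Windows narrowed by 2 bins on each side held 30.3% (ratio 4.58), and widened ones 54.3% (3.65). Loci whose number ends in 0 put 31.7% in the windows (3.46). The RNA-seq limit set at 0.1 or 10 CPM gave 65.9 or 85.7%. The mean replicate correlation was 0.983 at 50 counts, 0.973 and 0.987 with pseudocounts of 0.1 and 5 CPM and 0.975 by Spearman. Other alternatives, among them thinning to the smallest library, left the values within their spread.

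Leaving out each Col-0 library in turn gave 162 to 216 loci for 50% of the counts, 26.9 to 30.9% for the 10 highest loci, 45.4 to 46.7% for the windows and 10.7 to 14.2% for the biological CV, which was lowest without replicate 3. The dxo1-2 minus Col-0 difference in the share of loci with little RNA-seq was -0.134 percentage points (-2.04 without rRNA and tRNA), and ran between -1.44 and 0.800 when 1 library was left out. Its sign turned to 0.799 when wild-type replicate 1 was dropped, to 0.235 for wild-type replicate 2, and to 0.800 for mutant replicate 2.

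With the replicate number as a block, the difference in loci carrying 50% of the counts was 198.7 (sign-flip permutation p = 0.25, the smallest that 3 pairs allow), and no call changed. Same-numbered libraries did not all deviate together, with correlations of 0.271, -0.083 and -0.144 over 5347 loci. Depth limits the low loci, where counting error gives a CV of 22.5% at 10 to 50 counts.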
